A study of Mus musculus with 8 samples.

Results

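The Kcn genes encode the subunits of potassium channels, and their transcripts were compared between 4 WT and 4 Mettl3 KO libraries of mouse heart RNA. Members were the protein-coding genes of the deposited table whose symbol begins with Kcn followed by a letter and whose mean over the 8 libraries was at least 3 normalized read counts. This rule took 49 of the 67 protein-coding Kcn genes listed, out of 23045 genes in all. It did not use the genotype. The members just inside the limit were Kcnc1 and Kcnc4, both with a mean of 3.0, and the gene just outside it was Kcnh1 with a mean of 2.88. The other 17 Kcn genes below the limit had means of 0.375 to 2.63.

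Both groups carried loxP sites around both alleles of Mettl3 (Mettl3lox/lox), the gene of the enzyme that methylates adenosines in RNA at the N6 position. The Mettl3 KO mice carried in addition alphaMHC-MerCreMer, a Cre recombinase that is made in cardiomyocytes and becomes active with tamoxifen, and the WT mice did not carry it. Per the study's methods, mice received tamoxifen for 7 consecutive days at 100 µg per g body weight from an age of 10 to 16 weeks. The presence of MerCreMer and the loss of Mettl3 therefore cannot be told apart in this comparison. The labels give the tissue as heart without naming its parts, and the driver of the recombinase is meant to leave Mettl3 intact in other cells than cardiomyocytes. In such bulk samples, fewer cells of a type and less RNA per cell cannot be told apart. The labels name 4 samples per group without naming animals, so p-values measure the spread between these samples.

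Potassium channels let potassium leave the cell and so end the cardiac action potential and hold the resting potential. Voltage-gated Kv channels open on depolarisation, and in the mouse heart the fast transient outward current runs through Kv4 pores (Kcnd2, Kcnd3) with the accessory subunit KChIP2 (Kcnip2). Silent Kv subunits form no channel alone and change the gating of the pores they join. KCNQ1 with KCNE1 (Kcnq1, Kcne1) and ERG (Kcnh2) form the delayed rectifiers of larger mammals. Inward rectifiers (Kcnj genes) set the resting potential, answer acetylcholine through G proteins, or sense ATP together with sulfonylurea receptors. Two-pore domain channels carry background current, and further channels open with calcium or sodium inside the cell.

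Values are read counts that the authors had normalized for library size, and their totals were 2839589 to 2916986 per library. About 2631000 to 3062000 reads per library lay behind them, so that 3 reads, the limit a count of 0 allows, were worth 2.78 to 3.33 normalized read counts (counting error only). Mettl3 itself had 105, 133, 118 and 107 normalized read counts in the WT libraries and 74, 68, 69 and 78 in the Mettl3 KO libraries, a direction that matched the labels in all 8. Ventricular cardiomyocyte markers (Myl2, Myl3, Myh6, Tnnt2, Tnni3, Actc1 and Pln) were abundant in every library, with summed levels of 12985 to 14238 in WT and 13140 to 14767 in Mettl3 KO, and the lowest adjusted p among the 7 was 0.192 (Tnnt2, limma). Of 7 atrial markers 6 were higher in Mettl3 KO, and their summed level was 574, 491, 292 and 551 in WT replicates 1 to 4 and 770, 1174, 1334 and 1778 in Mettl3 KO replicates 1 to 4. Bmp10 was at 0 in all WT libraries and in Mettl3 KO replicate 1, and Myl7 was at 26, 21, 0 and 23 in WT, against 23, 65, 90 and 119 in Mettl3 KO, while Nppa had 175 to 292 in WT and 410 to 508 in Mettl3 KO. In Mettl3 KO replicate 1 only Nppa (452) and Dkk3 (132) stood above all WT libraries. Its Myl4 (113) and Sln (10) lay within the WT range and its Sbk2 (40) just below it. Of 8 fibroblast markers 7 were higher, with sums of 3648 to 4172 in WT and 4711 to 5671 in Mettl3 KO. Of 8 endothelial markers 3 were lower and 1 was higher, with sums of 4825 to 4975 and 4407 to 4786. The sums of smooth muscle and pericyte markers (1 of 8 lower), macrophage markers (1 of 8 lower) and nerve and Schwann cell markers (1 of 5 tested higher, Mbp, from 12.2 ± 1.71 to 24.8 ± 4.03, SD, n = 4 each, limma adjusted p = 0.00923) overlapped between the groups. The part of these markers in the results below was not tested. Values with an atrial marker index as covariate are given for some members. The atrial sums did not overlap between the groups, so such values cannot separate genotype from marker level.

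Of the 49 members, 11 passed the test (22.4%; limma on log2(value + 1), Benjamini-Hochberg adjusted p under 0.05), beside 7.91% of the 20313 genes tested. The 6 members that rose were Kcnma1, Kcnt2, Kcnj14, Kcnj5, Kcng2 and Kcnk3, where 4.72% of all genes tested rose. The 5 that fell were Kcnv2, Kcne1, Kcnd3, Kcnd2 and Kcnj2, where 3.19% of all genes tested fell. Among protein-coding genes held to the same mean of at least 3, 10.7% passed. By level, 1 of 13 members with means under 10 passed, 3 of 19 with means under 100 and 7 of 17 above, and the corresponding shares of protein-coding genes were 3.31%, 7.68% and 14.8%. The groups did not overlap in 14 members, beside 11.5% of all genes tested, and these were the 11 that passed and 3 that did not, Kcnn2 and Kcnq1 among them. The median log2 fold change of the members was 0.0030, against -0.0086 over all genes, and the median of its size without sign was 0.23 against 0.17. The sum of all 49 members overlapped between the groups, with 6308 ± 231 normalized read counts in WT and 6255 ± 121 in Mettl3 KO hearts (SD, n = 4 each). With the atrial marker index as covariate 6 members and 817 of 20313 genes tested passed. Within the Mettl3 KO group the atrial sum of replicate 1 was nearest to WT, so values with this covariate lean most on that library.

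**Figure D1:**
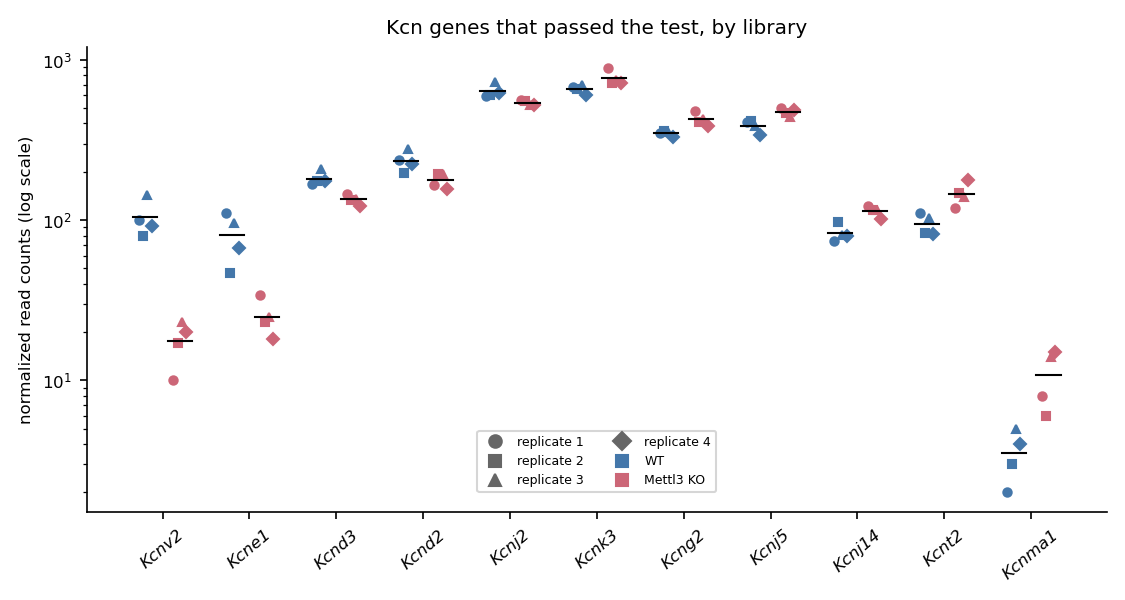
Normalized read counts (log axis) of the 11 Kcn genes that passed the test in each WT (blue) and Mettl3 KO (red) library, ordered by log2 fold change, where symbols mark the replicate number and bars the group mean. Kcnv2 and Kcne1 show the widest gaps between the groups, from means of 104 and 80.3 to means of 17.5 and 25.0.

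By class, voltage-gated pore subunits had 2 decreases among 14 members and 0 increases. The 2 silent Kv subunits moved in opposite directions. Of 9 accessory subunits 1 fell, and of 4 KCNQ and EAG pore subunits 0 passed, 1 of them (Kcnq1) with an unadjusted p under 0.05 (0.0237). Of 8 inward rectifiers 2 rose and 1 fell. Of 4 two-pore domain channels 1 rose, and of 8 calcium- and sodium-activated channel genes 2 rose. Every class but the silent subunits had a median log2 fold change between -0.29 and 0.12, and 38 members did not pass, 19 of them with a positive and 19 with a negative value. The 95% intervals of 32 of these 38 included 0, and their log2 fold changes ranged from -0.73 for Kcnc4 to 0.68 for Kcna4.

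**Figure D2:**
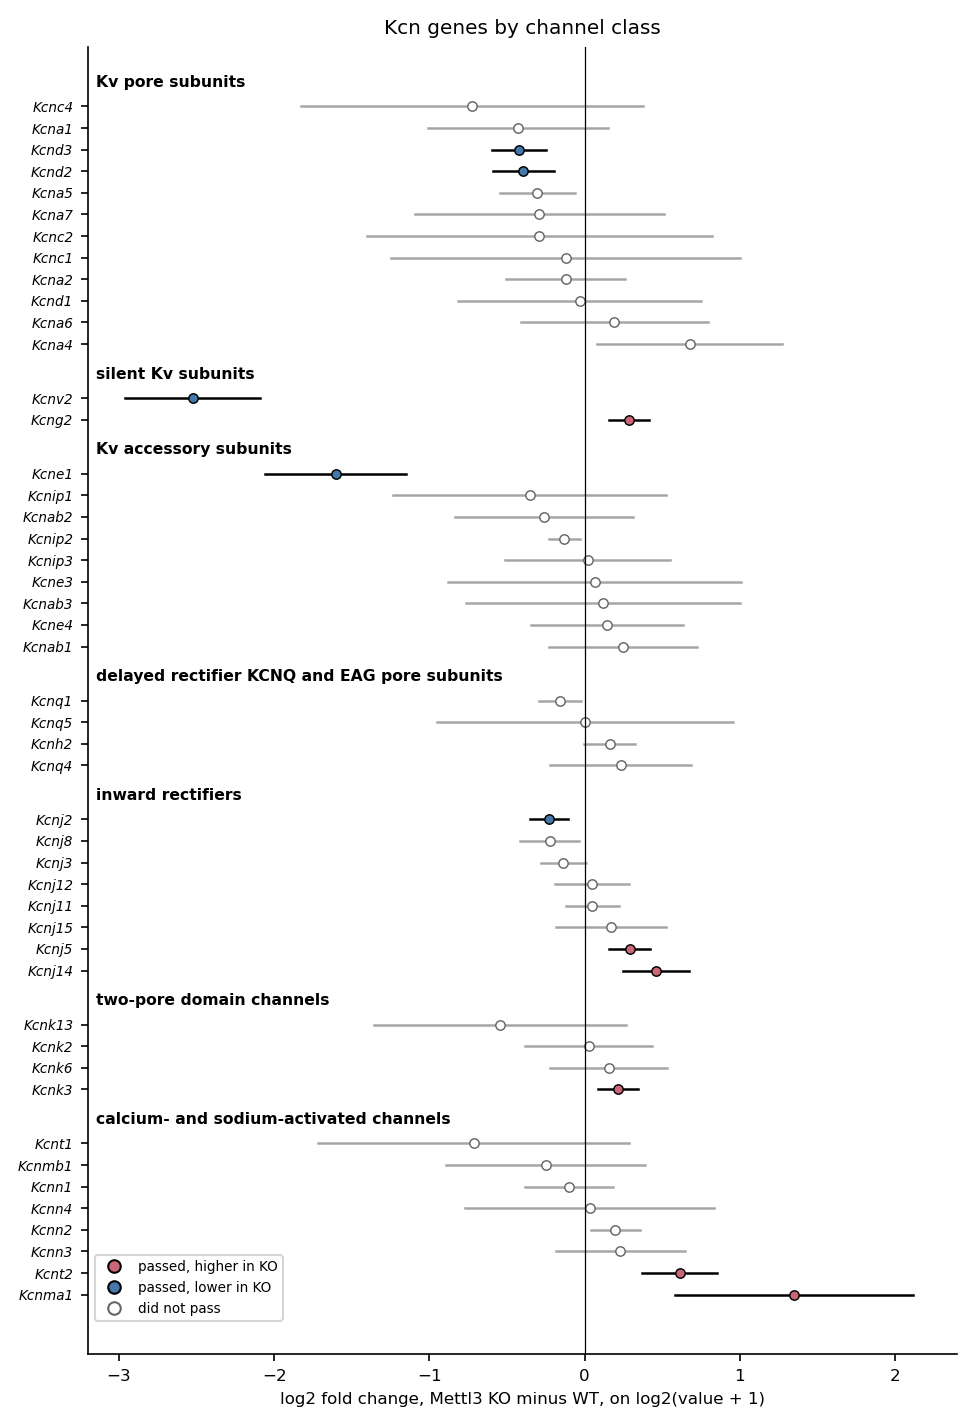
Log2 fold change (Mettl3 KO minus WT, on log2(value + 1)) of 47 Kcn genes with 95% intervals from limma, grouped by channel class. Filled points passed the test, and the intervals are widest for the 13 members with means under 10.

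Levels can be compared between genes only per length, and exon lengths of an earlier mouse annotation (GENCODE vM21) were found for all 49 members. Per kb of exon, Kcnk3 (TASK-1, a background channel) ranked first in WT hearts with 166 ± 10.5 normalized read counts per kb (SD, n = 4), followed by Kcnip2 with 157 ± 5.24. Their WT ranges overlapped, 151 to 174 against 150 to 161. Kcnj2 at 117 ± 11.3, Kcng2 at 116 ± 4.10 and Kcnj3 at 112 ± 7.11 came next and overlapped each other, and Kcnj5 stood apart at 82.6 ± 7.15. Kcne1 at 25.0 ± 8.94 and Kcnv2 at 20.3 ± 5.37 normalized read counts per kb ranked 16 and 17 in WT hearts. In Mettl3 KO hearts they were at 7.78 ± 2.08 and 3.43 ± 1.09 per kb (SD, n = 4).

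**Figure D3:**
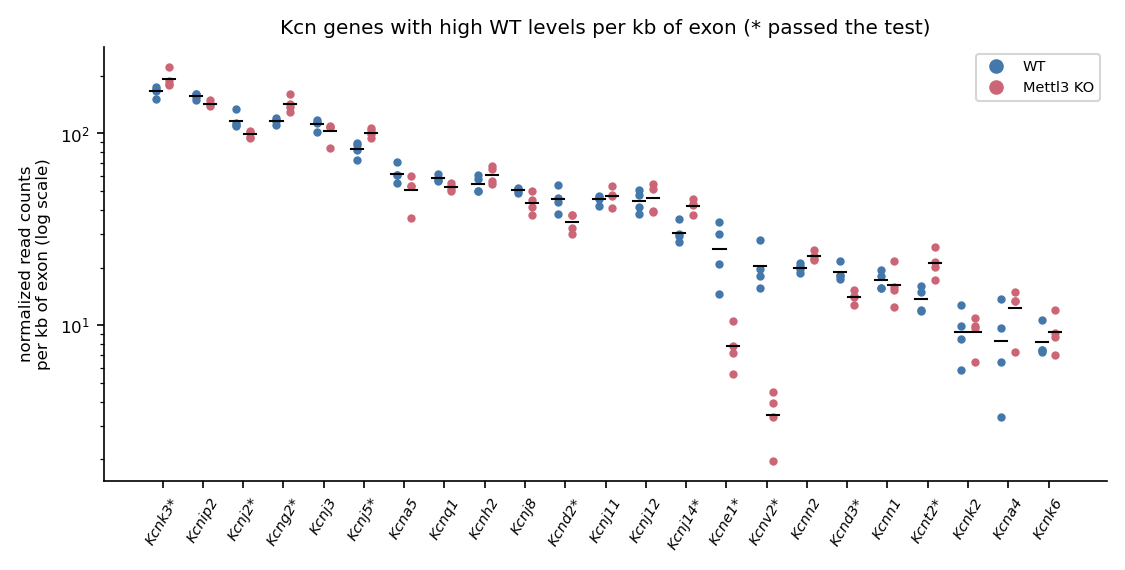
Normalized read counts per kb of exon (log axis) of 23 of the 24 Kcn genes with the highest WT level, in WT (blue) and Mettl3 KO (red) libraries, with bars at the group means and asterisks at genes that passed the test. Kcnk3 leads at 166 per kb in WT, and Kcnv2 drops from 20.3 to 3.43 per kb.

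The largest decrease was that of Kcnv2 (ENSMUSG00000047298, mm39 chromosome 19, 27299988 to 27314579, plus strand), which encodes the silent subunit KV8.2. The WT libraries held 100, 80, 143 and 92 normalized read counts, and the Mettl3 KO libraries 10, 17, 23 and 20. The highest Mettl3 KO library lay far below the lowest WT library, and the Mettl3 KO mean was 16.9% of the WT mean. This gave a log2 fold change of -2.53 ± 0.21 (SE, adjusted p = 7.15e-08 in limma). The lncRNA gene just upstream of Kcnv2 on the same strand, ENSMUSG00000120513, went down with it, from 31.5 ± 7.72 to 4.0 ± 0.817 normalized read counts (SD, n = 4 each, limma adjusted p = 1.58e-06).

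Kcng2 (ENSMUSG00000059852, mm39 chromosome 18, 80337761 to 80407469, minus strand), the gene of the silent subunit KV6.2, rose. It had 349, 360, 352 and 331 normalized read counts in WT hearts and 480, 409, 427 and 386 in Mettl3 KO hearts, and every Mettl3 KO library was above every WT library. It rose by a log2 fold change of 0.29 ± 0.06 (SE, adjusted p = 0.00555 in limma), which is 1.22-fold, and with the atrial marker index as covariate it was 0.46 (limma adjusted p = 0.00335). Per kb of exon Kcng2 stood at 116 ± 4.10 in WT, above Kcnv2 at 20.3 ± 5.37 (SD, n = 4 each), so the less abundant of the silent subunits was the one that fell. A gene antisense to the start of Kcng2, D330025C20Rik, rose as well, with 29.5 ± 7.94 and 76.3 ± 13.4 normalized read counts in WT and Mettl3 KO (SD, n = 4 each, limma adjusted p = 3.15e-05), and reads were counted by strand. Gm37015, inside Kcng2 and on its strand, had 59.0 ± 13.6 and 46.8 ± 9.07 (SD, n = 4 each, limma adjusted p = 0.289), and the neighbours Slc66a2 and Gm26676 had log2 fold changes of -0.21 and 0.12 (limma adjusted p = 0.281 and 0.931).

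Kcne1 (ENSMUSG00000039639, mm39 chromosome 16, 92142870 to 92156356, minus strand) encodes minK, the accessory subunit that slows KCNQ1 channels. It had 111, 47, 96 and 67 normalized read counts in WT libraries and 34, 23, 25 and 18 in Mettl3 KO libraries. The WT libraries spread widely, yet none reached down to the Mettl3 KO libraries. The log2 fold change was -1.60 ± 0.22 (SE, adjusted p = 4.57e-05 in limma), and the Mettl3 KO mean was 31.2% of the WT mean. With the atrial marker index as covariate the log2 fold change was -1.03 (limma adjusted p = 0.0729). Its partner Kcnq1 had 233, 253, 232 and 241 normalized read counts in WT, against 225, 218, 211 and 205 in Mettl3 KO, with no overlap but a log2 fold change of only -0.16 (limma adjusted p = 0.156). The ratio of Kcne1 to Kcnq1 was 0.339 ± 0.131 in WT and 0.116 ± 0.027 in Mettl3 KO (SD, n = 4 each), without overlap. Kcnh2, the ERG channel, had 242 to 293 normalized read counts in WT and 265 to 329 in Mettl3 KO (log2 fold change 0.16, limma adjusted p = 0.249), and it passed with the atrial marker index as covariate (0.39, limma adjusted p = 0.0419).

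The Kv4 pore genes Kcnd2 and Kcnd3 fell together. A further Kv4 gene, Kcnd1, had 7, 4, 5 and 5 normalized read counts in WT, against 3, 10, 5 and 4 in Mettl3 KO. Kcnd1 did not pass (log2 fold change -0.03, limma adjusted p = 0.982). Kcnd2 (ENSMUSG00000060882, mm39 chromosome 6, 21215502 to 21729804, plus strand) had 238, 196, 277 and 225 normalized read counts in WT hearts and 166, 194, 194 and 155 in Mettl3 KO hearts. The lowest WT library stood only 2 counts above the highest Mettl3 KO libraries. The log2 fold change was -0.39 ± 0.09 (SE, adjusted p = 0.0104 in limma). Kcnd3 (ENSMUSG00000040896, mm39 chromosome 3, 105359646 to 105581318, plus strand) stood at 168, 174, 207 and 176 in WT, against 146, 134, 136 and 123 in Mettl3 KO, with a log2 fold change of -0.42 ± 0.08 (SE, adjusted p = 0.00223 in limma). Every Mettl3 KO library was below every WT library for both genes. Added per kb of exon, the pair came to 64.3 ± 8.03 in WT and 48.5 ± 4.21 in Mettl3 KO (SD, n = 4 each), and Kcnd3 made up 29.5% ± 2.05 and 29.1% ± 2.36 of that sum, so the mix of the pair moved less than its spread. With the atrial marker index as covariate neither passed (Kcnd2 -0.26, limma adjusted p = 0.397, and Kcnd3 -0.17, limma adjusted p = 0.519), and Kcnd2 did not pass without Mettl3 KO replicate 4 (limma adjusted p = 0.0605).

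Kcnip2, their accessory subunit, had 541, 520, 555 and 561 normalized read counts in WT, against 493, 494, 521 and 482 in Mettl3 KO. The groups met only in the values 520 and 521, and the log2 fold change of -0.13 (95% interval -0.23 to -0.03) did not pass (limma adjusted p = 0.121). The ratio of Kcnd2 to Kcnip2 was 0.429 ± 0.053 in WT and 0.356 ± 0.033 in Mettl3 KO (SD, n = 4 each), with overlap. Kcna4, the pore of the slow transient outward current, varied widely within the WT group, with 31, 66, 16 and 47 normalized read counts against 35, 65, 65 and 72 (log2 fold change 0.68, limma adjusted p = 0.172). Leaving out WT replicate 2 or Mettl3 KO replicate 1 made it pass (0.97 and 0.91, limma adjusted p = 0.0476 and 0.0479). Leaving out WT replicate 3 lowered it to 0.31 (limma adjusted p = 0.510), and its sign turned with the atrial marker index as covariate (-0.56, limma adjusted p = 0.420). Kcna5, the pore of the ultrarapid delayed rectifier, had 158 to 203 in WT, against 104, 152, 171 and 153 in Mettl3 KO (log2 fold change -0.30, limma adjusted p = 0.119). With the atrial marker index as covariate its decrease passed (-0.76, limma adjusted p = 0.00245), while leaving out Mettl3 KO replicate 1 gave -0.15 (limma adjusted p = 0.355). Mettl3 KO replicate 1 alone against WT gave -0.76 as well, so the value with the covariate rests largely on this library.

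Since members moved in both directions, the promoter windows of the 6 that passed and had an entry are shown (Kcnd2, Kcnd3 and Kcnj2, which fell, and Kcnj5, Kcnma1 and Kcnt2, which rose), from 250 bases before to 50 bases after the transcription start (RefSeq, GRCm38.p6, 5′ to 3′ on the gene's strand). Capitals mark matches on either strand to 5 motifs. These are TATAAA, the box bound by TBP, then CCAAT, the site of NF-Y, which reads ATTGG on the other strand, then CACGTG, an E-box, then GGAATG, a TEAD element, and last ACANNTGT, an Iroquois element. No motif contains another.
Kcnd2 (chr6:21215096-21215395, plus strand): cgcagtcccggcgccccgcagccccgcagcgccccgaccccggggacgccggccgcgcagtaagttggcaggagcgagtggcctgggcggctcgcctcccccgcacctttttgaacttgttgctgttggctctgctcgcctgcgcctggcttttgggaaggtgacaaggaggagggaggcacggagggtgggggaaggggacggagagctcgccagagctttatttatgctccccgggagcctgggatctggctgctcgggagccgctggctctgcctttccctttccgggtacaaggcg
Kcnd3 (chr3:105451640-105451939, plus strand): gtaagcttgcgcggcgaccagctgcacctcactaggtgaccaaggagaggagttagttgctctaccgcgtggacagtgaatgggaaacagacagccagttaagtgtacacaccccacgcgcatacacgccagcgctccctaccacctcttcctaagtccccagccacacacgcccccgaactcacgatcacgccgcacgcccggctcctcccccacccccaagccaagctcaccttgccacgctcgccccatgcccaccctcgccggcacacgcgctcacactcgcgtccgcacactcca
Kcnj2 (chr11:111065914-111066213, plus strand): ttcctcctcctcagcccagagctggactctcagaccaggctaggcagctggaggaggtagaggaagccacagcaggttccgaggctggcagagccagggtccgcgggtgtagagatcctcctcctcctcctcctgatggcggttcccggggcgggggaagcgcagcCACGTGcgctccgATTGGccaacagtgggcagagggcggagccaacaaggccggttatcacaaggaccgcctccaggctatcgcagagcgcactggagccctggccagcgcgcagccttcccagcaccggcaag
Kcnj5 (chr9:32344295-32344594, minus strand): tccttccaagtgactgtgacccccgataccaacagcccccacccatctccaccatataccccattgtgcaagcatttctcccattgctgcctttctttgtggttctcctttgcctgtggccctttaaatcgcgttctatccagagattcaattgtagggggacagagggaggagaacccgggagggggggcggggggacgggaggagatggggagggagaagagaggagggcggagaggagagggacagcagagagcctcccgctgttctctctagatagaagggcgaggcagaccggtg
Kcnma1 (chr14:24004156-24004455, minus strand): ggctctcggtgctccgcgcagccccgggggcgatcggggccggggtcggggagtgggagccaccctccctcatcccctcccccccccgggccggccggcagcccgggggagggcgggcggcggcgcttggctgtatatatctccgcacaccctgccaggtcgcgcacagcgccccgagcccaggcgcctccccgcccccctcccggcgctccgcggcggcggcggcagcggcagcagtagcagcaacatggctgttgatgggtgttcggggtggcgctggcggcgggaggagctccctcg
Kcnt2 (chr1:140245468-140245767, plus strand): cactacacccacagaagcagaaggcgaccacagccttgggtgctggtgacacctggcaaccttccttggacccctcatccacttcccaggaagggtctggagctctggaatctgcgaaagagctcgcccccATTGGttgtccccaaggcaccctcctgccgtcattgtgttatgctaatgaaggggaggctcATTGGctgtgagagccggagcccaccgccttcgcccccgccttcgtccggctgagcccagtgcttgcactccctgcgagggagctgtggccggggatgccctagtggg
The windows of Kcnd2, Kcnd3, Kcnj5 and Kcnma1 held none of the 5 motifs, the window of Kcnj2 held 1 CACGTG and 1 CCAAT match, and that of Kcnt2 held 2 CCAAT matches. Windows were found for 33 of the 49 members (50 windows, since some genes have several starts), 6 of the 11 that passed among them. CCAAT was in 34.0% of the members' windows and 37.4% of all 32841 windows, CACGTG in 5 of the 50 and 7.15% of all, ACANNTGT in 4 of the 50 and 7.37%, GGAATG in 4 of the 50 and 14.7%, and TATAAA in 2 of the 50 and 13.6%. A match is a description of the letters and shows no binding.

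**Figure D4:**
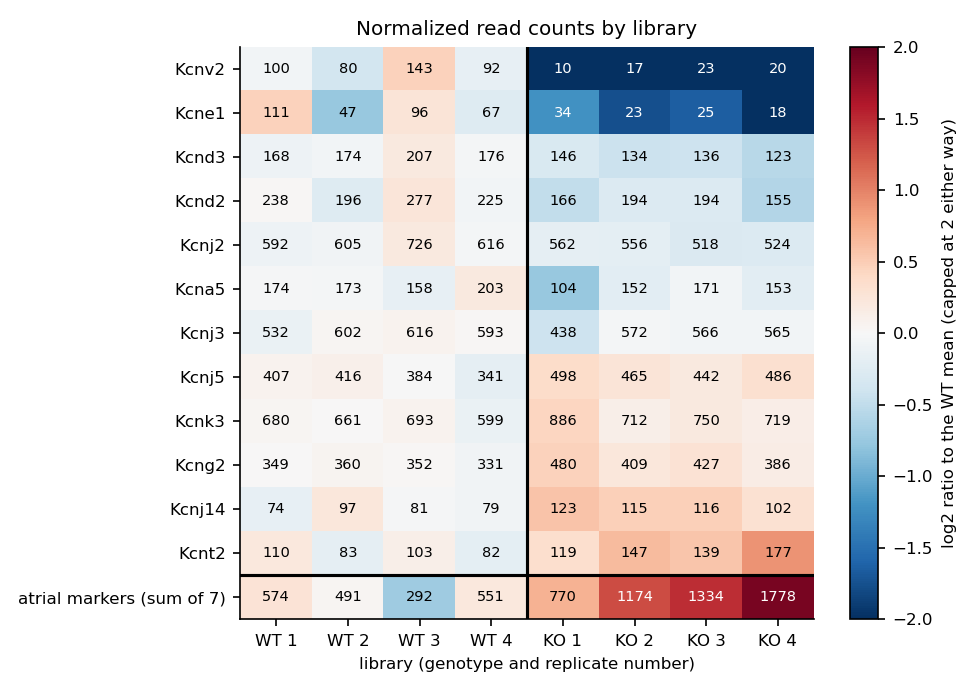
Normalized read counts of 12 Kcn genes in each WT and Mettl3 KO (KO) library, written in the cells and coloured by the log2 ratio to the WT mean on value + 1, with the summed level of 7 atrial markers in the bottom row. Mettl3 KO replicate 1, with the lowest atrial sum of its group (770), had the lowest Kcna5, Kcnj3 and Kcnv2 and the highest Kcnj5, Kcnk3, Kcng2 and Kcnj14 values of all libraries.

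Among the inward rectifiers of the Kir2 group, Kcnj2 fell and Kcnj14 rose. Kcnj2 (ENSMUSG00000041695, mm39 chromosome 11, 110956990 to 110967647, plus strand), the main pore of the current that sets the resting potential of ventricular cells, had 592, 605, 726 and 616 normalized read counts in WT, against 562, 556, 518 and 524 in Mettl3 KO. All Mettl3 KO libraries were below all WT libraries. The log2 fold change was -0.23 ± 0.06 (SE, adjusted p = 0.0167 in limma). It lost this call without WT replicate 3 (limma adjusted p = 0.0683), Mettl3 KO replicate 3 (0.0793) or Mettl3 KO replicate 4 (0.0625), and it was -0.04 with the atrial marker index as covariate (limma adjusted p = 0.871). Kcnj14 (ENSMUSG00000058743, mm39 chromosome 7, 45465884 to 45474206, minus strand), the gene of Kir2.4, rose from 74, 97, 81 and 79 to 123, 115, 116 and 102 normalized read counts. The groups did not overlap, and the log2 fold change was 0.46 ± 0.10 (SE, adjusted p = 0.00606 in limma). Kcnj12, the third Kir2 pore gene of the list, had 104 to 139 in WT and 107 to 150 in Mettl3 KO (log2 fold change 0.05, 95% interval -0.19 to 0.29, limma adjusted p = 0.881). Added per kb of exon, the Kir2 genes came to 191.5 ± 15.2 in WT and 187 ± 12.4 in Mettl3 KO (SD, n = 4 each), while the share of Kcnj14 was 14.0% to 19.0% in WT libraries and 21.7% to 23.1% in Mettl3 KO libraries.

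Of the G protein-gated pair, which carries the acetylcholine current of atrial and nodal cells, Kcnj5 rose and Kcnj3 did not pass. Kcnj5 (ENSMUSG00000032034, mm39 chromosome 9, 32226003 to 32255646, minus strand), the gene of Kir3.4, rose from 407, 416, 384 and 341 to 498, 465, 442 and 486 normalized read counts, without overlap. The log2 fold change was 0.29 ± 0.06 (SE, adjusted p = 0.00449 in limma), and with the atrial marker index as covariate it was 0.33 (limma adjusted p = 0.0648). Its partner Kcnj3, the gene of Kir3.1, had 532, 602, 616 and 593 in WT, against 438, 572, 566 and 565 in Mettl3 KO (log2 fold change -0.14, limma adjusted p = 0.290). The lowest value came from Mettl3 KO replicate 1, and without that library the log2 fold change was -0.04 (limma adjusted p = 0.732). The ratio of Kcnj5 to Kcnj3 was 0.664 ± 0.083 in WT and 0.898 ± 0.163 in Mettl3 KO (SD, n = 4 each), without overlap. Per kb of exon the pair summed to 195 ± 8.58 and 203.5 ± 9.63, so the sum overlapped while its makeup did not.

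**Figure D5:**
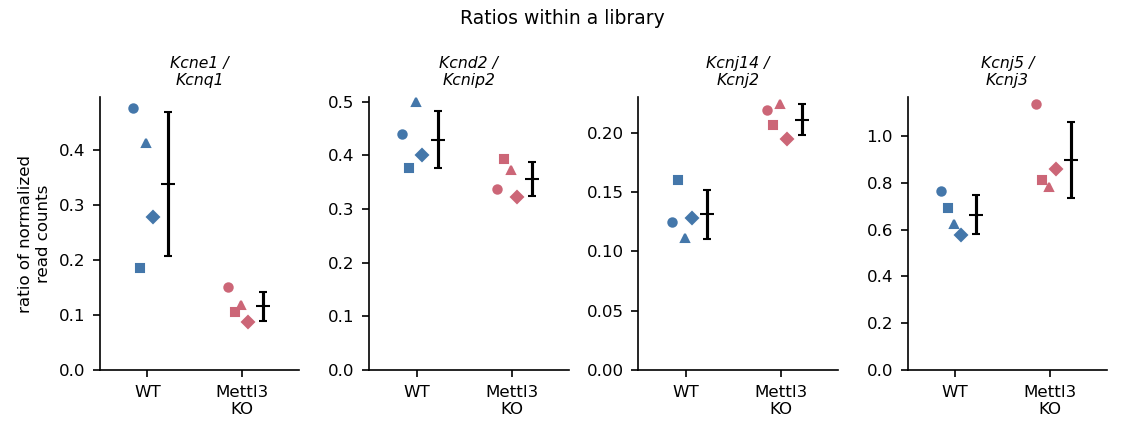
Ratio of the normalized read counts of channel partners within each WT (blue) and Mettl3 KO (red) library, with symbols for replicate numbers and black marks for the mean ± SD (n = 4). All ratios but that of Kcnd2 to Kcnip2 were without overlap, and that of Kcne1 to Kcnq1 went from 0.339 to 0.116.

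These ratios were chosen after the genes' values were seen and are given with no test. The ATP-sensitive pores did not pass. Kcnj11, the cardiomyocyte pore, had 154 to 174 normalized read counts in WT and 150 to 195 in Mettl3 KO (log2 fold change 0.05, limma adjusted p = 0.811), and Kcnj8, better known from vascular cells, had 125 to 132 and 96 to 127 (log2 fold change -0.23, limma adjusted p = 0.156). Kcnj3, Kcnj8 and Kcnj12, with the atrial marker index as covariate, were at -0.30, -0.36 and 0.38 and did not pass either (limma adjusted p = 0.118, 0.214 and 0.242). The sulfonylurea receptors, which are no Kcn genes, both fell: Abcc9 from 2140, 2105, 2302 and 2174 to 1980, 1909, 1893 and 1826 normalized read counts, and Abcc8 from 210, 211, 231 and 226 to 161, 175, 171 and 193. Their log2 fold changes were -0.20 (limma adjusted p = 0.00152) and -0.33 (limma adjusted p = 0.00628), without overlap.

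Kcnk3 (ENSMUSG00000049265, mm39 chromosome 5, 30745514 to 30782615, plus strand), the member with the highest mean level per kb of exon in WT, where its range overlapped that of Kcnip2, rose from 680, 661, 693 and 599 to 886, 712, 750 and 719 normalized read counts. The groups did not overlap, but the highest WT and the lowest Mettl3 KO library lay close, and the log2 fold change was 0.22 ± 0.06 (SE, adjusted p = 0.0330 in limma). The call was lost without WT replicate 1 (limma adjusted p = 0.0540), 2 (0.0785) or 4 (0.141) and without Mettl3 KO replicate 1 (0.0981) or 3 (0.0832). With the atrial marker index as covariate it was 0.43 (limma adjusted p = 0.00202). The other two-pore members Kcnk2, Kcnk6 and Kcnk13 had log2 fold changes of 0.03, 0.16 and -0.54 and did not pass (limma adjusted p = 0.966, 0.710 and 0.491).

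Kcnt2 (ENSMUSG00000052726, mm39 chromosome 1, 140173896 to 140539805, plus strand) encodes SLICK, a potassium channel opened by sodium. It had 110, 83, 103 and 82 normalized read counts in WT hearts and 119, 147, 139 and 177 in Mettl3 KO hearts, without overlap. The log2 fold change was 0.61 ± 0.12 (SE, adjusted p = 0.00148 in limma), and with the atrial marker index as covariate 0.40 (limma adjusted p = 0.261). Its paralogue Kcnt1 had 6, 6, 7 and 1 in WT, against 1, 5, 2 and 2 in Mettl3 KO (log2 fold change -0.72, limma adjusted p = 0.454). Kcnma1 (ENSMUSG00000063142, mm39 chromosome 14, 23339499 to 24064559, minus strand), the pore of the large-conductance calcium-activated channel, rose from 2, 3, 5 and 4 to 8, 6, 14 and 15 normalized read counts (log2 fold change 1.35 ± 0.37, SE, adjusted p = 0.0255 in limma). The WT values stood at or near what 3 reads are worth, so the size of this change is poorly set. The call was lost when WT replicate 1 or 2 was left out (limma adjusted p = 0.0826 and 0.0645), or Mettl3 KO replicate 3 or 4 (0.106 each), and with the atrial marker index as covariate (1.30, limma adjusted p = 0.295). Its accessory subunit Kcnmb1 had 11 to 21 in WT and 7 to 23 in Mettl3 KO (limma adjusted p = 0.733). Kcnn2, a small-conductance calcium-activated channel, had 147, 152, 140 and 157 in WT, against 164, 184, 165 and 171 in Mettl3 KO, without overlap, and its log2 fold change of 0.20 did not pass (limma adjusted p = 0.125).

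A further list held 23 partners and regulators of the channels, of which 20 were in the table, and 3 rose and 4 fell, with a median log2 fold change of -0.0002, where 4.72% of all genes tested rose and 3.19% fell. Irx5, a homeobox repressor that shapes the gradient of Kcnd2 across the mouse ventricular wall, rose from 62, 80, 55 and 55 to 104, 90, 98 and 94 normalized read counts (log2 fold change 0.62, limma adjusted p = 0.00187). Irx4, of the same family, rose by 0.30 (limma adjusted p = 0.0447), and Irx3 did not pass (0.23, limma adjusted p = 0.0935). Cav3, the muscle caveolin, rose by 0.24 (limma adjusted p = 0.0483). Besides both sulfonylurea receptors, Lrrc55, an accessory subunit of the KCNMA1 channel, fell by 0.92 on the log2 scale (limma adjusted p = 0.0159), and Dlg1, the scaffold SAP97, fell by 0.18 (limma adjusted p = 0.0204). The 13 that did not pass include Irx3, the channel partner Amigo1, the anchor Ank2 and the regulator Etv1.

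Rows that lie within or beside the members that passed were read as well. Within the span of Kcnd2 and on its strand, Gm42583 fell from 314, 238, 314 and 280 to 156, 173, 171 and 157 normalized read counts (log2 fold change -0.79, limma adjusted p = 1.95e-06). In the same span 5330437M03Rik fell from 46, 40, 45 and 46 to 14, 24, 31 and 24 (log2 fold change -0.95, limma adjusted p = 0.00367) and Gm42584, a processed pseudogene, from 10.5 ± 2.08 to 4.0 ± 2.45 (SD, n = 4 each, limma adjusted p = 0.0357). All 3 fell by more than Kcnd2 itself, a difference that was not tested. Next to Kcnd3 the antisense gene Kcnd3os had 6 to 13 normalized read counts in WT and 7 to 12 in Mettl3 KO (limma adjusted p = 0.902). Gm43847, inside Kcnd3 and on its strand, had 16 to 22 and 11 to 19 (log2 fold change -0.38, limma adjusted p = 0.398). Overlapping Kcnk3 on the opposite strand, Gm9899 had 131 to 178 and 143 to 186 (log2 fold change 0.11, limma adjusted p = 0.612), and inside Kcnt2 Gm37777 had 10 to 25 and 19 to 29 (log2 fold change 0.65, limma adjusted p = 0.123). The protein-coding neighbours of Kcnj14 did not pass either (Grwd1, limma adjusted p = 0.129, and Cyth2, limma adjusted p = 0.963).

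METTL3 modifies adenosines mainly within the letters GGACT and near variants of them, so GGACT was counted in the longest protein-coding transcript of each member (GENCODE vM21, sense strand). Kcnj14 and Kcnk3, which rose, had 1.87 and 1.84 per kb, whereas Kcnj5, Kcnt2 and Kcng2, which also rose, had 0.640, 0.691 and 0.711. Kcnv2 had 0.979 per kb (5 in 5108 bases), Kcne1 0.630 (2 in 3174 bases), Kcnd2 0.970, Kcnd3 1.12 and Kcnj2 0.918. The median was 0.769 per kb over the 6 members that rose, 0.970 over the 5 that fell, 1.04 over the 38 others and 1.05 over the 14384 tested genes with such a transcript. Members that rose and that fell overlapped in this count, which describes sequence and not methylation.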

How the data were processed

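Heart RNA of 4 WT and 4 Mettl3 KO samples had been sequenced as stranded single-end reads of 72 bases. Per the study's methods and the submitters' processing notes, the authors trimmed reads (Trimmomatic 0.39), aligned them to mm39 (STAR 2.7.11a), removed duplicates (Picard 3.1.1) and multi-mapping reads, counted exonic reads by strand (featureCounts 2.0.4) and normalized with DESeq2 (version 1.36.0 in these notes). The deposited values are a score, namely these normalized counts rounded to whole numbers, so tools for raw counts were not run. Leaving out multi-mapping reads lowers genes with near-identical copies.

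In R 4.3.3, limma 3.58.1 was run with genotype alone and a trend of the variance on the mean, for log2(value + 1) of the 20313 genes whose mean reached 1 (2732 did not). The design named this test for normalized values. Tests were two-sided, and p was adjusted by Benjamini-Hochberg over all genes tested. Fold changes on this scale understate those of low genes. The reads behind each value were estimated from the spacing of low values (factors 0.927 to 1.11). The labels gave the groups and the replicate numbers. Members, gene lists and alternatives were chosen with earlier results of these data known. Named were members that passed, a list of repolarisation genes, the 5 most abundant members and those at the limit of 3, and 2 members are not reported here by name. Kcnd1, Kcnt1, Kcnmb1, Kcnk2, Kcnk6 and Kcnk13, the neighbouring rows, the sums and the ratios were added after their values were seen. Neighbouring rows lie within 2000 bases of a member that passed. The atrial marker index is the mean log2 level of the 7 atrial markers. Alternatives were other scalings, limma voom, robust moderation, pseudocounts of 0.5 and 4, no filter or a mean of at least 10, the replicate number as a block, the atrial index, Mettl3 KO replicate 1 alone against WT and 1 library left out at a time. The fit was tested on simulated data.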

Additional observations from a re-analysis of the deposited data

Results flagged for a closer look

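In groups of 4 libraries, 1 library stood far from the others in 3 of the 98 groups of members searched, where chance alone gives about 4.9. Kcnk6, a two-pore channel, was at 44 normalized read counts in WT replicate 4 and at 30 to 31 in the other WT libraries, a gap of 0.929 of the group's range. Kcnt1 was at 1 in WT replicate 4 and at 6 to 7 in the other WT libraries (0.833), at values that rest on few reads. Kcnj3 was at 438 in Mettl3 KO replicate 1 and at 565 to 572 in the other Mettl3 KO libraries (0.948).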

How the results depend on the processing

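The number of members that passed was 11 under all 3 other scalings, limma voom, robust moderation, both pseudocounts, no filter and the replicate block, and 10 with a mean of at least 10, where Kcnma1 was not tested. It was 6 with the atrial marker index as covariate (Kcnv2, Kcng2, Kcnk3 and Kcnj14 of the 11, with Kcna5 and Kcnh2) and 0 with Mettl3 KO replicate 1 alone against WT, where the lone library is assumed to vary like the others. Over all genes these settings gave 817 and 8 calls. The atrial sums did not overlap between the groups (292 to 574 in WT, 770 to 1778 in Mettl3 KO), so the covariate and genotype are hard to separate. A call lost with it therefore does not show that marker level explains a change. Kcnj5 lost its call at 0.33, against 0.29 without the covariate. Kcnd2, Kcnd3, Kcne1, Kcnj2, Kcnt2 and Kcnma1 lost theirs at smaller changes. The cause was not tested, and the other setting has fewer samples. Leaving out 1 library at a time gave 8 to 11 members, lowest without Mettl3 KO replicate 3 or 4, and 1019 to 1596 genes. Replicate numbers did not pair the libraries (correlations of -0.0042 to 0.0222 between same-numbered libraries), and the replicate block gave 11 members and 1346 genes. None of the 11 that passed changed sign in any of the 20 alternatives (19 for Kcnma1). The alternatives were read gene by gene for 24 named members, and among these signs turned only in members that did not pass. With the atrial marker index Kcna4 was at -0.56, Kcnc1 at 0.97, Kcnc4 at 1.082 and Kcnj11 at -0.12, and with Mettl3 KO replicate 1 alone these were at -0.015, 0.15, 0.88 and -0.15. With single libraries left out, Kcnc1 ranged from -0.74 to 0.20, Kcnj11 from -0.0077 to 0.12 and Kcnj12 from -0.037 to 0.12. Of the 13 members with a mean under 10 normalized read counts only Kcnma1 passed, and smaller changes may not be detectable there at this depth.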

Other observations

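Among transcripts that carry a Kcn name but encode no channel, the lncRNA Kcnq1ot1, which lies antisense in the Kcnq1 locus, had 1124, 1187, 1178 and 1198 normalized read counts in WT, against 1400, 1357, 1153 and 1276 in Mettl3 KO, with overlap (log2 fold change 0.14, limma adjusted p = 0.0857). Kcnj4, a Kir2 gene below the limit of 3, had 1, 2, 4 and 4 in WT, against 0, 0, 1 and 0 in Mettl3 KO (limma adjusted p = 0.0633), at values near what 3 reads are worth.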
